A study of Mus musculus with 6 samples.

Results

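The genes described here are 10 genes of the choroid plexus and the meninges, the tissues that lie beside the cortex inside the skull: *Ttr*, *Kl*, *Folr1*, *Clic6*, *Enpp2*, *Aqp1*, *Igf2*, *Igfbp2*, *Otx2* and *Slc6a13*. They were taken by gene name from the 51826 genes of the count and FPKM tables, 1 row for each name, and each library was compared to see whether neighboring tissue had been sampled with the cortex. The study irradiated the whole brain of male BALB/c mice, 6 to 8 weeks of age, with a single 10 Gy dose of X-ray and collected the cortex on day 3. Bulk RNA sequencing covered 3 libraries from wild-type mice (Lgmn+/+-IR) and 3 from mice that lack AEP, the lysosomal protease encoded by *Lgmn* (Lgmn-/--IR). The knockout carried a floxed *Lgmn* allele, derived through Flp mice, together with Cre, and the methods do not name the Cre line. Non-irradiated mice were not analysed here, and no value below compares irradiated with non-irradiated tissue. A p value measures only the spread between these libraries.

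The choroid plexus is a sheet of epithelium in the brain ventricles that secretes cerebrospinal fluid, and it is known for very high expression of transthyretin. The leptomeninges, the pia and arachnoid, cover the cortical surface and contain fibroblasts that make growth factors, matrix and transporters. The choroid plexus lies deep to the cortex in the ventricles, while the pia adheres to the cortical surface, and several of the 10 genes are active in both tissues. In bulk tissue, fewer cells of a type and less RNA per cell cannot be told apart.

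Total counts ranged from 41874462 to 46829441 per library, at which 3 counts correspond to 0.0646 to 0.0703 CPM (counts scaled to library size with edgeR's TMM factors). *Lgmn* had 130, 129 and 127 CPM in Lgmn+/+-IR and 83.4, 70.4 and 93.6 CPM in Lgmn-/--IR, a log2 fold change of -0.64 ± 0.12 (± standard error for each fold change; adjusted p = 0.0315, edgeR, and 0.0949 to 0.131 with any library other than Lgmn-/--IR replicate 2 or 3 left out). Its RNA was thus lower in each knockout library but not absent. Of the excitatory neuron genes, *Camk2a* had a mean of 501 FPKM and *Slc17a7* 371 FPKM over the 6 libraries (FPKM is a level scaled for transcript length and depth). These levels cannot check the cortical label, because no other brain region was sequenced for comparison. The libraries did not stand apart by genotype alone. The summed CPM of 10 striatal genes was 1532, 2713 and 2425 in Lgmn+/+-IR replicates 2 and 3 and Lgmn-/--IR replicate 1 and 568 to 666 in the other libraries. The summed CPM of 7 red cell genes was 7.59 to 15.9 in Lgmn+/+-IR, against 2273, 1730 and 234 in Lgmn-/--IR replicates 1, 2 and 3. The summed CPM of 12 mature oligodendrocyte genes was 3772 to 4561 in Lgmn+/+-IR and 2529 to 2739 in Lgmn-/--IR.

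*Slc6a13*, a GABA and taurine transporter (GAT2) of leptomeningeal cells, rose in Lgmn-/--IR, with a ratio of mean CPM of 1.60. It was 1 of the 10 genes to rise at an adjusted p under 0.05, and 1.65% of the 18345 genes tested did so (1.68% fell). *Enpp2*, *Igf2* and *Igfbp2* were also higher in each Lgmn-/--IR library than in each Lgmn+/+-IR library without passing the test, and *Ttr* had the same mean in both genotypes. All 10 genes entered the test, and 0 were past both thresholds used for DEGs (the adjusted p as above, and a log2 fold change beyond 1 in either direction), against 2.06% of all genes tested. At an unadjusted p under 0.05 there were 4 (*Slc6a13*, *Igf2*, *Igfbp2* and *Otx2*), against 18.6% of all genes. DESeq2 gave 3 genes with an adjusted p under 0.05 (*Slc6a13*, *Igf2* and *Igfbp2*, all higher) and 0 past both thresholds. Of the 18331 genes to which DESeq2 gave an adjusted p, 4.07% were higher and 3.69% lower under 0.05, and 3.23% were past both thresholds. The genotypes did not overlap in 4 genes that were higher and 2 that were lower in Lgmn-/--IR (*Folr1* and *Otx2*), against 12.4% and 13.3% of all genes tested. The log2 fold change was above 0 in 7 of the 10 genes with a median of 0.34. Over all genes tested it was above 0 in 8863 of 18345, with a median of -0.01.

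**Figure D1:**
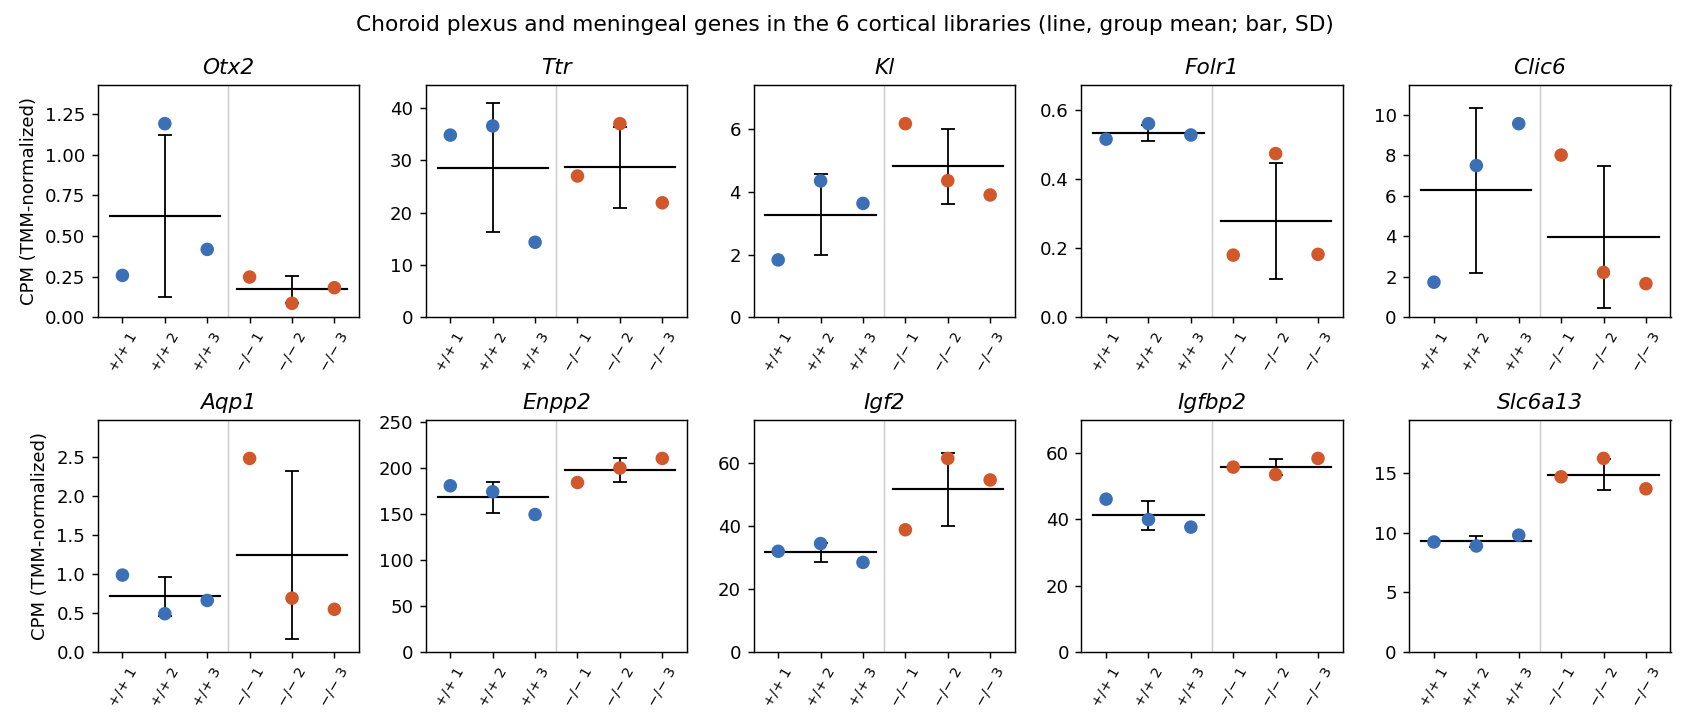
CPM of the 10 genes (vertical axes, linear from 0) in each Lgmn+/+-IR library (blue) and each Lgmn-/--IR library (orange), with the group mean as a line and the SD as a bar (n = 3). *Slc6a13*, *Igf2*, *Igfbp2* and *Enpp2* are higher in each Lgmn-/--IR library, *Clic6* is high in 3 libraries from both genotypes, and *Otx2* and *Aqp1* are each high in 1 library.

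Among these genes the order of levels on the length-scaled FPKM, as means over 6 libraries, was *Enpp2* (53.3), *Igfbp2* (35.4), *Ttr* (20.8), *Igf2* (11.5), *Slc6a13* (5.20), *Clic6* (1.22), *Kl* (0.686), *Folr1* (0.419), *Aqp1* (0.322) and *Otx2* (0.178). The order from *Enpp2* to *Clic6* was the same in every library. *Igfbp2* and *Ttr* were nearly level in Lgmn+/+-IR replicate 2 (27.8 and 27.1 FPKM), and *Ttr* and *Igf2* were close in Lgmn-/--IR replicate 1 (19.4 and 18.0 FPKM). Between *Clic6* and *Otx2* each pair of neighbors changed places in at least 1 library. *Ttr*, which dominates the RNA of choroid plexus epithelium, was thus below the growth factor binding protein and the lysophospholipase in all 6 libraries.

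*Otx2* encodes a homeodomain transcription factor of the choroid plexus that is also used in the developing thalamus and midbrain. Replicates 1, 2 and 3 gave 11, 51 and 19 counts for Lgmn+/+-IR and 11, 4 and 8 for Lgmn-/--IR, or 0.258, 1.19 and 0.418 CPM against 0.248, 0.0862 and 0.182 CPM. Lgmn+/+-IR replicate 2 stood at 2.85 times the next library, and Lgmn+/+-IR replicate 1 was almost level with Lgmn-/--IR replicate 1. A log2 fold change of -1.84 ± 0.68 resulted (adjusted p = 0.213, edgeR) and -0.97 without Lgmn+/+-IR replicate 2. The same library was highest for *Gbx2*, a thalamic transcription factor (2.15 CPM, against 0.0469 to 0.528 CPM elsewhere), and for *Gpr151*, a habenular receptor (3.62 CPM, against 0.479 to 1.34 CPM elsewhere). These 2 genes were picked after their values were seen. The whole list of 10 thalamic and habenular genes summed to 141 CPM in that library but also to 136 CPM in Lgmn-/--IR replicate 1, and over the 6 libraries *Otx2* had r = 0.45 and rho = 0.14 with this sum. The part of such tissue in the *Otx2* value was not tested.

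*Ttr*, the transthyretin gene, encodes the carrier of thyroid hormone and of retinol-binding protein in cerebrospinal fluid. Lgmn+/+-IR libraries held 1485, 1565 and 652 counts of it, against 1199, 1717 and 960 in Lgmn-/--IR. The CPM were 34.8, 36.5 and 14.3 against 27.0, 37.0 and 21.9, with means of 28.6 ± 12.4 and 28.6 ± 7.69 (SD, n = 3). The libraries of both genotypes interleaved, and Lgmn+/+-IR replicate 3 was the lowest of the 6. Between genotypes it differed by 0.00 ± 0.36 on the log2 scale (adjusted p = 0.998). The fold between the highest and the lowest library was 2.58 for *Ttr*.

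*Kl* encodes klotho, a membrane co-receptor for FGF23 that is made in the choroid plexus and, at lower levels, in neurons. It had 1.83, 4.34 and 3.63 CPM in Lgmn+/+-IR and 6.17, 4.35 and 3.90 CPM in Lgmn-/--IR. Lgmn-/--IR replicate 1 was highest and Lgmn+/+-IR replicate 1 lowest, and the genotypes overlapped (log2 fold change 0.56 ± 0.34, adjusted p = 0.425). *Folr1*, the folate receptor that carries folate across the choroid plexus, was counted 22, 24 and 24 times in Lgmn+/+-IR, against 8, 22 and 8 times in Lgmn-/--IR. Its CPM were 0.516, 0.560 and 0.528 against 0.180, 0.474 and 0.182, so each knockout library was lower, with Lgmn-/--IR replicate 2 close to the Lgmn+/+-IR libraries. The fold change was -0.93 ± 0.44 on the log2 scale (adjusted p = 0.318) and -1.54 without that library (adjusted p = 0.0919).

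*Clic6* encodes an intracellular chloride channel protein found in choroid plexus epithelium. It had 1.73, 7.50 and 9.56 CPM in Lgmn+/+-IR and 8.01, 2.22 and 1.66 CPM in Lgmn-/--IR. The 3 high libraries, Lgmn+/+-IR replicates 2 and 3 and Lgmn-/--IR replicate 1, were those with the high striatal sum, and they came from both genotypes. Over the 6 libraries the log2 CPM of *Clic6* followed the log2 striatal sum with Pearson's r = 0.97 and Spearman's rho = 0.83, a description over n = 6 libraries that share depth and preparation. With the sum of the other choroid plexus genes it had r = 0.81 and the same rho. That sum has *Htr2c*, which neurons also express, among its most abundant genes. *Drd2*, a dopamine receptor of striatal neurons, was high in the same 3 libraries (53.2, 88.2 and 84.5 CPM, against 10.9 to 13.3 CPM elsewhere). The log2 fold change of *Clic6* between genotypes was -0.66 ± 0.75 (adjusted p = 0.685), and it was -0.10 (adjusted p = 0.864) with the log2 striatal sum as a covariate, a model added after the striatal values were seen. Without Lgmn-/--IR replicate 1 it was -1.69 and without Lgmn+/+-IR replicate 3 it was -0.22, both without the covariate. The part of striatal tissue in the *Clic6* value was not tested.

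*Aqp1*, the water channel of the apical choroid plexus membrane and of red cells, was counted 42, 21 and 30 times in Lgmn+/+-IR, against 110, 32 and 24 times in Lgmn-/--IR. In CPM these were 0.984, 0.490 and 0.660 against 2.48, 0.689 and 0.547. Lgmn-/--IR replicate 1 stood at 2.52 times the next library and the other knockout libraries lay within the range of Lgmn+/+-IR. On the log2 scale the difference was 0.80 ± 0.61 (adjusted p = 0.532) and turned to -0.20 without that library. The same library had the highest red cell sum of the 6, but Lgmn-/--IR replicate 2, with a red cell sum of 1730 CPM, had 0.689 CPM of *Aqp1*. The part of red cells in the *Aqp1* value was not tested.

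**Figure D2:**
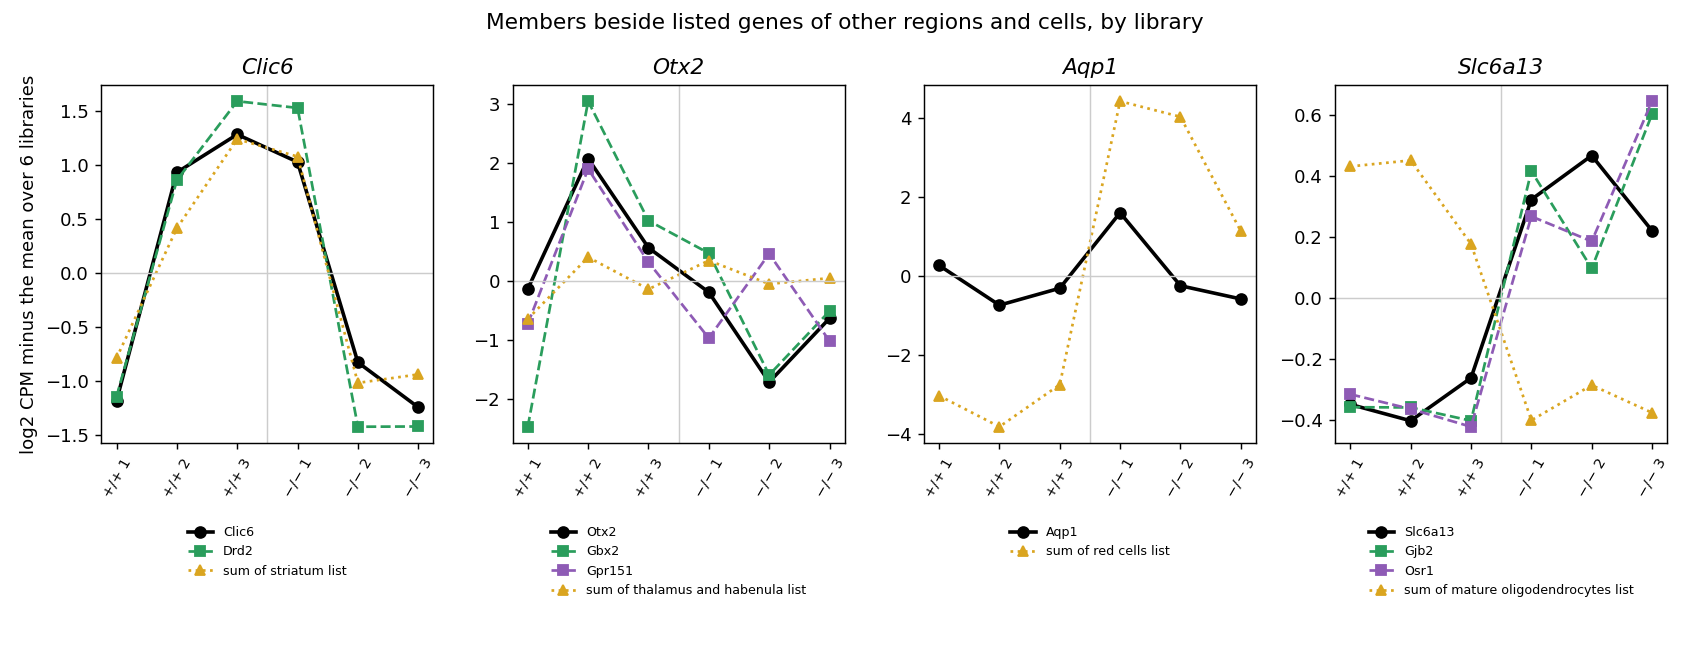
For each of 4 genes, the log2 CPM minus its mean over the 6 libraries (vertical axis) by library. Squares are *Drd2* beside *Clic6*, *Gbx2* and *Gpr151* beside *Otx2*, and the leptomeningeal genes *Gjb2* and *Osr1* beside *Slc6a13*, with none beside *Aqp1*. Triangles are the summed CPM of a list: striatal for *Clic6*, thalamic and habenular for *Otx2*, red cell for *Aqp1* and mature oligodendrocyte for *Slc6a13*. *Clic6* runs with the striatal list, *Otx2* and *Gbx2* peak in Lgmn+/+-IR replicate 2, *Aqp1* peaks in Lgmn-/--IR replicate 1, and *Slc6a13* is higher with *Gjb2* and *Osr1* in all 3 Lgmn-/--IR libraries, where the oligodendrocyte sum is lower.

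*Enpp2* encodes autotaxin, the secreted lysophospholipase D that makes lysophosphatidic acid, and is expressed in choroid plexus, leptomeninges and oligodendrocytes. It had 181, 174 and 150 CPM in Lgmn+/+-IR (168 ± 16.5, SD, n = 3) and 184, 200 and 211 CPM in Lgmn-/--IR (198 ± 13.2). The genotypes did not overlap, but the nearest libraries stood at 181 and 184 CPM. Its log2 fold change came to 0.24 ± 0.10 (adjusted p = 0.279).

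*Igf2* encodes insulin-like growth factor 2, which choroid plexus and meninges release to the cerebrospinal fluid, and *Igfbp2* encodes a binding protein that holds such factors. The counts of *Igf2* were 1365, 1475 and 1295 for Lgmn+/+-IR and 1725, 2854 and 2398 for Lgmn-/--IR, or 32.0, 34.4 and 28.5 CPM against 38.8, 61.5 and 54.6 CPM. Each knockout library was higher, and Lgmn-/--IR replicate 1 stood nearest to Lgmn+/+-IR. This was a log2 fold change of 0.71 ± 0.18 (adjusted p = 0.0886, edgeR), and it was 0.88 with an adjusted p of 0.0283 without Lgmn-/--IR replicate 1.

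The count and the deposited FPKM of *Igf2* did not run in parallel. The FPKM were 7.22, 7.61 and 6.21 in Lgmn+/+-IR, against 18.0, 19.7 and 10.5 in Lgmn-/--IR. The ratio of means between genotypes was thus 1.63 by CPM and 2.29 by FPKM. The CPM per FPKM of *Igf2* was 4.50 to 4.63 in Lgmn+/+-IR but 2.14, 3.22 and 4.90 in Lgmn-/--IR replicates 1, 2 and 3. That of *Ttr* stayed between 1.38 and 1.39 in all 6 libraries. *Igf2* was not alone in this, since the value ranged from 0.880 to 1.34 for *Folr1* and from 2.08 to 2.99 for *Otx2*. For *Clic6* it was 3.47 in Lgmn-/--IR replicate 3 and 4.25 to 4.33 elsewhere. GENCODE M21 places on the same strand as *Igf2* a further protein-coding gene, *Gm49394*, that shares 3596 exonic bases with it. The gene ID of *Gm49394* is absent from the deposited counts and FPKM, so it has no value here. How reads in the shared bases were treated is not given in the sources used here, and the part of this overlap in the difference was not tested.

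**Figure D3:**
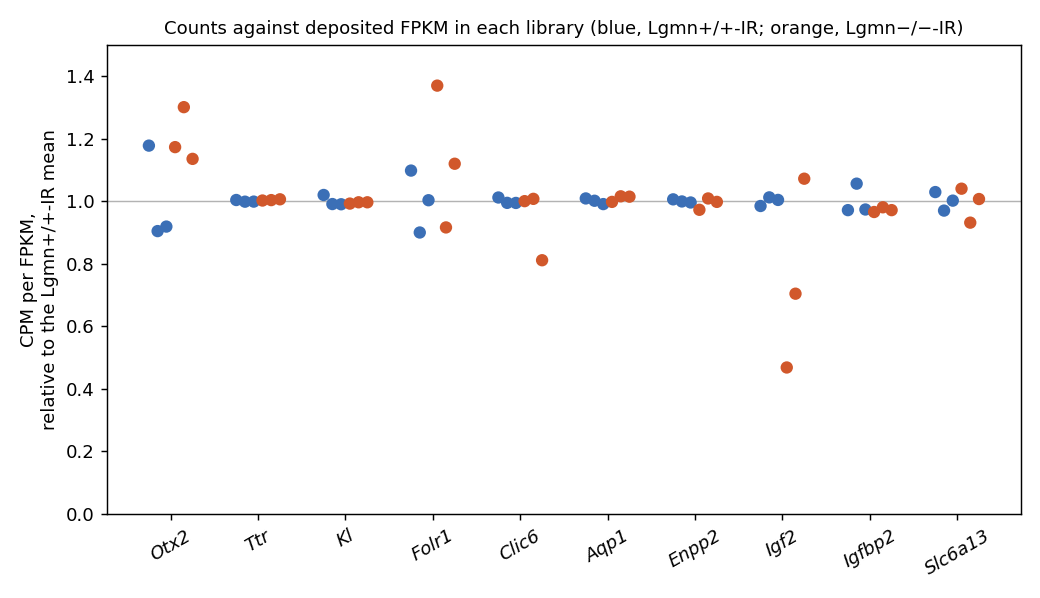
CPM on library totals divided by the deposited FPKM for each gene and library, relative to the Lgmn+/+-IR mean of that gene (vertical axis, linear from 0; blue, Lgmn+/+-IR; orange, Lgmn-/--IR). The points of *Ttr*, *Kl*, *Enpp2* and *Aqp1* lie near 1, and those of *Igf2* are lower in Lgmn-/--IR replicates 1 and 2. Those of *Folr1* and *Otx2* spread in both genotypes, and the point of *Clic6* is lower in Lgmn-/--IR replicate 3.

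*Igfbp2* had 46.0, 39.8 and 37.6 CPM in Lgmn+/+-IR (41.1 ± 4.35, SD, n = 3) and 55.6, 53.4 and 58.2 CPM in Lgmn-/--IR (55.8 ± 2.42). The lowest knockout library lay above the highest Lgmn+/+-IR library, and the log2 fold change was 0.44 ± 0.11 (adjusted p = 0.0797). *Slc6a13* was counted 394, 381 and 446 times in Lgmn+/+-IR, against 653, 754 and 601 times in Lgmn-/--IR. Its CPM were 9.23, 8.90 and 9.81 (9.31 ± 0.46) against 14.7, 16.2 and 13.7 (14.9 ± 1.28), so the genotypes did not overlap. The log2 fold change of *Slc6a13* was 0.68 ± 0.12 (adjusted p = 0.0275, edgeR). It kept this direction in every alternative run, but with any single library left out the adjusted p was 0.0547 to 0.140, and limma on the log2 of the FPKM gave 0.0857 to 0.0957. The red cell sum (r = 0.98 on the log2 scale, n = 6) and the oligodendrocyte sum (r = -0.95) ordered the libraries much as *Slc6a13* did, and their part in the result was not tested.

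The 4 genes that did not overlap between genotypes and were higher in Lgmn-/--IR also ran together within the 6 libraries. Of 45 pairs among the 10 genes, 4 had a Pearson's r of log2(CPM + 1) above 0.8, all among *Enpp2*, *Igf2*, *Igfbp2* and *Slc6a13* (*Enpp2* with *Igfbp2* 0.89 and with *Igf2* 0.88, *Slc6a13* with *Igfbp2* 0.85 and with *Igf2* 0.84). Since the 4 were higher in the same libraries by genotype, these values describe the 6 libraries and carry no test. *Ttr* had an r of -0.39 with *Clic6*, -0.09 with *Kl*, 0.05 with *Aqp1*, 0.12 with *Otx2* and 0.21 with *Folr1*. No library was highest in more than 3 of the 10 genes: Lgmn-/--IR replicate 2 was highest for 3 (*Ttr*, *Igf2* and *Slc6a13*), Lgmn+/+-IR replicate 1 for 0, and Lgmn+/+-IR replicate 3 was lowest for 4.

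The stretches before the transcription start of 3 genes that were higher in each Lgmn-/--IR library are shown, because they were high in the same libraries and RefSeq (GRCm38.p6) gives their promoter windows. Such windows were found for 6 of the 10 genes (*Igfbp2*, *Kl*, *Aqp1*, *Slc6a13*, *Igf2* and *Otx2*), 15 windows in all. For each of the 3 genes the window that holds motif matches is printed, 1 of 2 for *Igfbp2*, 1 of 4 for *Igf2* and 1 of 3 for *Slc6a13*, and their other windows had 0 matches outside annotated exons. The bases printed hold no annotated exon and run 5′ to 3′ on the strand of the gene. Capitals mark the GC box (GGGCGG) and the bicoid-class homeodomain core (TAATCC, or GGATTA on the other strand), the class to which OTX2 belongs. They lie at chr1:72824230-72824479 for *Igfbp2* (plus strand), chr7:142657497-142657746 for *Igf2* (minus strand) and chr6:121300038-121300226 for *Slc6a13* (plus strand).
Igfbp2: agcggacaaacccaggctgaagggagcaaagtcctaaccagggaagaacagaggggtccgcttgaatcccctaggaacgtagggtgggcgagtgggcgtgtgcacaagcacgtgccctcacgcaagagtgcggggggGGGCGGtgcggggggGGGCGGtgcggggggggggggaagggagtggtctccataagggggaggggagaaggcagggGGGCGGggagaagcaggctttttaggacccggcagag
Igf2: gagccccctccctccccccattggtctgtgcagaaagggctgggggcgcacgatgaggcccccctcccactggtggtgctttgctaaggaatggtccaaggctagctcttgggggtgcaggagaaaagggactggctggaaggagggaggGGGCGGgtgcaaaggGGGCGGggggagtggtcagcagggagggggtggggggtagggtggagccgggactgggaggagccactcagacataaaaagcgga
Slc6a13: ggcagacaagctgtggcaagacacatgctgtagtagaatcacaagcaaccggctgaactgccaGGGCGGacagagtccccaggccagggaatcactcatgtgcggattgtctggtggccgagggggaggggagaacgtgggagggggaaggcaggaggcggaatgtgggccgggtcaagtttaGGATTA
The GC box was in 6 of the 15 windows of 250 bases before the start, on either strand, and in 32.7% of all 32851 windows of that length in the table. *Igfbp2* had 3 in the stretch printed, *Igf2* had 2, and *Slc6a13* had 1, which begins 187 bases before its RefSeq start at chr6:121300288. The stretch printed for *Slc6a13* ends short of that start, at an annotated exon that begins at chr6:121300227. The bicoid-class core was in 2 of the 15 windows, 1 of *Slc6a13* (67 bases before the same RefSeq start) and 1 of *Otx2*, and in 6.25% of all windows. The forkhead core (GTAAACA) was in 0 of the 15 and in 3.17% of all windows, and the TATA box letters (TATAAA) in 1 and in 12.4%. These are matches of letters and not measured binding sites.

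Other genes of choroid plexus epithelium did not share a direction. Of 35 listed, 29 were tested, and 1 fell and 0 rose at an adjusted p under 0.05. The median log2 fold change was 0.11 and 17 of 29 were above 0. At an unadjusted p under 0.05 (edgeR) there were 6 of 29, against 18.6% of all genes tested. DESeq2 gave 3 that were lower, against 3.69% of all genes. *Car14*, a membrane carbonic anhydrase, fell from 13.5, 12.5 and 12.2 CPM to 8.31, 7.82 and 8.04 CPM (log2 fold change -0.66 ± 0.11, adjusted p = 0.0235), and its adjusted p was 0.0566 to 0.111 with any single library left out. The listed genes with the highest mean FPKM were *Spint2* (16.2), *Cdr2l* (7.63) and *Htr2c* (7.26), none of which passed the test, and *Htr2c*, a serotonin receptor that neurons also express, ranged from 11.1 CPM in Lgmn+/+-IR replicate 1 to 66.6 CPM in Lgmn+/+-IR replicate 3. In contrast, 13 of the listed genes were under 1 CPM in every library. Among markers that define the epithelium, *Kcnj13*, a potassium channel, had 1.23 to 1.71 CPM, *Kcne2*, a potassium channel subunit, 0.108 to 0.352 CPM, and *Lmx1a*, a roof plate and choroid plexus transcription factor, 0 to 0.0701 CPM. The list summed to 203, 256 and 301 CPM in Lgmn+/+-IR and 274, 219 and 253 CPM in Lgmn-/--IR, which overlapped. The correlation of this sum with *Ttr* was r = -0.77 over the 6 libraries, and the sum follows its abundant genes, *Htr2c* among them. Single genes varied: Lgmn-/--IR replicate 2, the highest library for *Ttr*, was highest for 3 of the 29 (*Calml4*, *Krt18* and *Sostdc1*) and lowest for 5. Lgmn+/+-IR replicate 3, the lowest for *Ttr*, was highest for 7 and lowest for 4.

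Most other leptomeningeal genes were higher in Lgmn-/--IR on the mean, though few passed the test. Of 36 tested, 30 had a log2 fold change above 0 (8863 of 18345 over all genes tested), with a median of 0.31. In each knockout library 13 were higher (36.1%, against 12.4% of all genes tested) and 2 lower. Under the alternatives, other scalings among them, 27 to 30 were above 0 and the median stayed between 0.18 and 0.39. Only *Gjb2*, a connexin of meningeal fibroblasts, rose past the adjusted threshold with edgeR, from 7.64, 7.64 and 7.41 CPM to 13.1, 10.5 and 14.9 CPM (log2 fold change 0.76 ± 0.15, adjusted p = 0.0463), and it lost this without any single library except Lgmn-/--IR replicate 2 (0.119 to 0.173) and in 7 of the 12 other alternatives, voom among them (0.0575). At an unadjusted p under 0.05 (edgeR) there were 13 of 36, against 18.6% of all genes tested. DESeq2 gave 6 higher and 2 lower, against 4.07% and 3.69% of all genes. *Osr1*, a transcription factor, had 2.39, 2.31 and 2.22 CPM against 3.58, 3.38 and 4.65 CPM (adjusted p = 0.0842). *Slc22a6*, an organic anion transporter, had 10.4, 9.95 and 10.0 CPM against 15.0, 13.1 and 14.9 CPM (adjusted p = 0.0598). *Mgp*, matrix Gla protein, was instead lower in each knockout library, with 19.4, 21.1 and 20.5 CPM against 16.0, 15.2 and 14.0 CPM (adjusted p = 0.0741). The most abundant, *Ptgds*, the prostaglandin D synthase that oligodendrocytes also make, had 909 ± 26.0 CPM and 939 ± 89.2 CPM (SD, n = 3). Lgmn-/--IR replicate 3 was the highest library for 19 of the 36 genes, whereas Lgmn-/--IR replicate 2 was the highest for *Igf2* and *Slc6a13*. *Nov*, a matricellular protein gene that cortical neurons also use, had 111 ± 22.1 CPM and 133 ± 10.8 CPM.

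**Figure D4:**
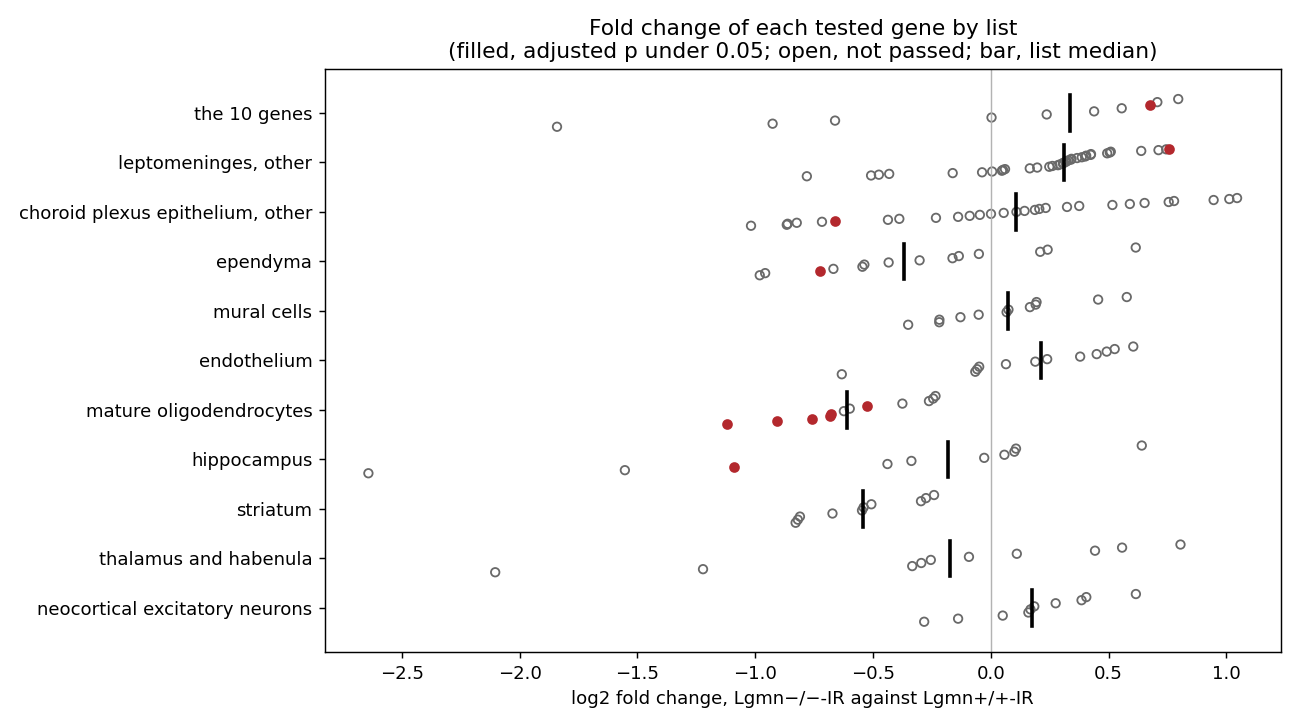
Log2 fold change of Lgmn-/--IR against Lgmn+/+-IR (horizontal axis) for each tested gene of 11 lists (vertical axis), filled where edgeR's adjusted p was under 0.05 and open where not, with the list median as a bar. The 10 genes have a median of 0.34 with 1 filled point, the other leptomeningeal genes 0.31 with 1, the other choroid plexus genes 0.11 with 1, and the oligodendrocyte genes -0.61 with 6.

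The ependyma is the ciliated lining of the ventricles beside the choroid plexus. Of its 14 genes tested, 1 fell and 0 rose past the adjusted threshold, with a median of -0.37. At an unadjusted p under 0.05 there were 4 (18.6% over all genes tested), and DESeq2 gave 1 that was lower (3.69% over all genes). *Foxj1*, the transcription factor of motile cilia, went from 10.5, 12.3 and 10.1 CPM to 6.28, 6.74 and 6.84 CPM (log2 fold change -0.73 ± 0.13, adjusted p = 0.0296), and any single library left out took its adjusted p to 0.0676 to 0.135. The list summed to 43.3 to 47.7 CPM in Lgmn+/+-IR and 33.3 to 38.0 CPM in Lgmn-/--IR.

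Pathway partners of the 10 genes were examined by their roles. Over all genes tested, 8863 of 18345 had a log2 fold change above 0 and 18.6% had an unadjusted p under 0.05 (edgeR). By DESeq2, 4.07% were higher and 3.69% lower at an adjusted p under 0.05. In the IGF system, 12 of 15 tested genes had a log2 fold change above 0 with a median of 0.32, and 0 passed the adjusted threshold with edgeR (3 at an unadjusted p under 0.05, and 1 by DESeq2). *Igf1r*, the receptor, had 51.0, 59.3 and 52.9 CPM against 67.3, 67.9 and 67.8 CPM (log2 fold change 0.32, adjusted p = 0.131), and *Igfbp5*, a binding protein, had 160 ± 6.74 CPM against 212 ± 43.9 CPM (adjusted p = 0.210). Around autotaxin, 1 of 9 genes of lysophosphatidic acid signaling rose and 0 fell, and 3 of the 9 had a log2 fold change above 0, with a median of -0.41 (2 higher and 3 lower at an unadjusted p under 0.05, 1 and 1 by DESeq2). The gene that rose was *Plpp1*, a lipid phosphate phosphatase that degrades the product of autotaxin, with 16.5, 15.7 and 17.1 CPM against 26.7, 23.5 and 24.7 CPM (log2 fold change 0.61 ± 0.10, adjusted p = 0.0225, and 0.0653 to 0.123 with any library other than Lgmn-/--IR replicate 2 left out), while *Lpar1*, its receptor, had 37.0 ± 3.76 CPM against 27.9 ± 2.37 CPM (adjusted p = 0.121). Of 7 further aquaporins and CLIC proteins, 1 rose and 0 fell. *Aqp4*, the water channel of astrocyte endfeet, had 69.9 ± 3.78 CPM against 103 ± 10.6 CPM (log2 fold change 0.55, adjusted p = 0.0374, and 0.0899 to 0.129 with any library other than Lgmn-/--IR replicate 2 left out). Of 10 genes of thyroid hormone and retinol handling, which *Ttr* serves, edgeR passed 0 (2 at an unadjusted p under 0.05, 1 by DESeq2). It also passed 0 of 6 folate genes (1 unadjusted, 0 by DESeq2), 0 of 5 klotho and FGF receptor genes (1 unadjusted, 0 by DESeq2) and 0 of 5 related GABA, taurine and creatine transporters (0 unadjusted, 0 by DESeq2).

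The genes most like *Ttr* over the 6 libraries, among 15019 compared by Pearson's r of log2(CPM + 1), were *Rab4b* (0.99), *Neat1* (0.99), *0610040J01Rik* (0.98), *Pdzph1* (0.98), *Ssc4d* (0.97), *Dhx30*, *Gm35339*, *Rrs1*, *Tst* and *Echdc2* (each 0.96). None belongs to the choroid plexus list. The members were left out of this ranking, and only genes with a mean of at least 1 CPM were compared. The 13 of 35 listed choroid plexus genes under 1 CPM in every library could therefore not appear. *Neat1*, a nuclear long noncoding RNA, had 49.7, 48.2 and 25.4 CPM in Lgmn+/+-IR and 42.4, 50.2 and 33.6 CPM in Lgmn-/--IR, with the same libraries low as for *Ttr*. The genes most like the summed CPM of the other 9 genes were *Alkbh6*, *H13*, *Pcyox1l*, *Sipa1l2*, *Farp1*, *Cep76*, *Nat8f3*, *Prdm15*, *Golm1* and *Kmt5a* (r of 0.99 to 1.00), a sum in which *Enpp2* holds the largest share. With 6 libraries and so many genes, such values describe these libraries only.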

How the data were processed

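Cortical RNA was sequenced from 3 Lgmn+/+-IR and 3 Lgmn-/--IR samples. The authors filtered reads with Trimmomatic 0.36 (submitters' processing notes, which also name GRCm38) and mapped them with HISAT2. They deposited a raw count per gene, without normalization, and FPKM computed with StringTie. The read counter, annotation release and strand setting are not given in the sources used here, so reads of overlapping and antisense genes cannot be told apart. Of 51826 gene IDs, 51633, with all 10 members, were found in GENCODE M21. Copies were searched for with BLAST.

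Counts were tested with edgeR 4.0.16 in R 4.3.3 (TMM, filterByExpr, quasi-likelihood test, Benjamini-Hochberg adjustment over 18345 genes). Standard errors come from the F statistic. Fold changes are Lgmn-/--IR against Lgmn+/+-IR. Alternatives were DESeq2 1.42.0, voom and log2(FPKM + 1, 0.1 or 0.01) with limma 3.58.1, other scalings and filters, a replicate block and each library left out. The edgeR test was tried on simulated counts with 200 changed genes. It gave an adjusted p under 0.05 to 44% of the 2-fold and 89.8% of the 4-fold changes. Of the genes it passed there, 8.33% were unchanged. A gene that did not pass may therefore still differ between genotypes. Within a genotype no library repeated another (chi-square per gene, on average, from 26.7 to 94.9). No molecular identifiers were used, and the floors cover counting error only.

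The members and lists were chosen with earlier results of these data known. Named are the members, *Lgmn*, list genes that passed, the 3 of each list with the highest FPKM, as far as they bear on a member, and the genes most like *Ttr* or the other members. *Drd2*, *Gbx2*, *Gpr151*, *Osr1*, *Slc22a6*, *Kcnj13*, *Kcne2*, *Lmx1a* and *Igf1r* were named after their values were seen.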

Additional observations from a re-analysis of the deposited data

How the results depend on the processing

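Each member stayed short of both thresholds under each of the 18 alternatives that tested it (*Folr1* and *Otx2* were not tested where every library needed at least 10 counts). The number of members with an adjusted p under 0.05, 1 in the edgeR test, was 0 with library totals only, with limma on FPKM at each pseudocount and with the block, 3 with DESeq2, and 0 to 1 with each library left out. *Igf2* passed with DESeq2 (adjusted p = 0.00743) and *Igfbp2* did too (0.0117). *Ttr* changed sign with upper quartile scaling (-0.024), library totals (-0.026), the striatal covariate (-0.091), without Lgmn+/+-IR replicate 3 (-0.32) and without Lgmn-/--IR replicate 2 (-0.22), with a range of -0.32 to 0.22 over the libraries left out. *Aqp1* changed sign without Lgmn-/--IR replicate 1, with a range of -0.20 to 1.15. The ratio of *Igf2* means was 2.29 on FPKM, and the cause was not tested. *Lgmn* was -0.63 (adjusted p = 0.0632) without a filter and -0.64 (0.0542) with the striatal covariate, and -0.74 to -0.54 with a library left out (adjusted p = 0.0318 to 0.131, and under 0.05 only without Lgmn-/--IR replicate 2 or 3). Genes past both thresholds, 377 in all (176 higher, 201 lower), numbered 593 (279 and 314) with DESeq2, 228 (106 and 122) where every library needed at least 10 counts, 175 (83 and 92) on log2(FPKM + 1), and 200 to 326 (107 to 156 and 93 to 170) with a library left out, the fewest without Lgmn+/+-IR replicate 2.

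Libraries that share a replicate number come from animals of different genotype. The labels do not say whether a shared number pairs the samples, or whether each library within a genotype is a separate animal. Between libraries of the same number, the correlations of deviations from the group means were -0.31, -0.05 and -0.05. These values cannot show whether such libraries shared a litter or a preparation. Blocking on that number, 139 genes passed (74 higher, 65 lower), *Slc6a13* had an adjusted p of 0.138, and *Lgmn* was -0.65 (0.113).

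Depth limits *Otx2* and *Folr1*, with 4 to 51 and 8 to 24 counts a library.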

Other observations

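Lists of other tissues near or in the cortex gave these values. For all genes tested, 18.6% had an unadjusted p under 0.05 (edgeR). By DESeq2, 4.07% were higher and 3.69% lower at an adjusted p under 0.05. Of 12 genes of mural cells and 12 of endothelium, edgeR passed 0 of each at an adjusted p under 0.05 (0 and 1 at an unadjusted p under 0.05, 0 and 1 by DESeq2), with medians of 0.07 and 0.21. Mature oligodendrocyte genes fell in 6 of 12 (1.68% of all genes tested fell), among them *Mobp*, a myelin protein gene, from 1121 ± 117 to 516 ± 45.0 CPM (SD, n = 3, log2 fold change -1.12, adjusted p = 0.0033, edgeR). Of 10 hippocampal genes, 1 fell past both thresholds, *Lct*, from 3.29 ± 0.507 to 1.54 ± 0.199 CPM (adjusted p = 0.0373, and 0.0606 to 0.137 with any library left out). Of 10 striatal, 10 thalamic and habenular and 10 neocortical genes, edgeR passed 0 in each list (0, 1 and 0 at an unadjusted p under 0.05, 0 in each by DESeq2), and the 5 red cell genes tested rose.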
